A study of Mus musculus with 21 samples.

Results

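The change between day 5 (D5) and day 6 (D6) of motor neuron differentiation was measured in cultures that had received GSKJ4, by setting the 3 D6+GSKJ4 libraries against the 3 D5+GSKJ4 libraries. These are 6 of the 21 libraries of the series, and they were chosen by their labels alone. All cultures were derived from wild-type C57BL/6 mouse embryonic stem cells and grown as embryoid bodies with retinoic acid and the Smoothened agonist SAG. The Notch pathway inhibitor DAPT was given from day 4 to direct them towards the hypaxial motor column. At day 5 the medium was changed to one with DAPT but without retinoic acid and SAG. Any change from D5 to D6, with or without GSKJ4, therefore cannot be told apart from the removal of both. GSKJ4 inhibits the KDM6 family of demethylases, which remove methyl groups from lysine 27 of histone H3. It was present from D4 to D5 in the D5+GSKJ4 cultures and from D5 to D6 in the D6+GSKJ4 cultures. The D6+GSKJ4 cultures therefore had no inhibitor before D5, and the comparison is between 2 separately treated groups rather than a single treated culture followed over time. The 3 D5 and 3 D6 libraries without GSKJ4 were fitted separately as the reference for the same day, and the 2 comparisons share no library. The RNA came from whole cultures, so fewer cells of a type and less RNA per cell cannot be told apart.

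Spinal motor neurons arise from ventral progenitors that carry Olig2 and divide under Sonic hedgehog and Notch signalling. On leaving the cell cycle they pass through a brief proneural phase and switch on the LIM-homeodomain factors Isl1, Isl2 and Lhx3. Maturation then brings the acetylcholine machinery, neurofilaments, ion channels and synaptic proteins, and in motor columns that innervate the body wall or limbs Lhx3 is lost. Retinoic acid is both a patterning signal and a maturation cue, and CYP26 enzymes degrade it.

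The 6 libraries held between 15099293 and 18798740 counts. Motor neuron markers were abundant in all 6: Mnx1 had at least 758 counts, Isl1 at least 2888 and Slc18a3, the vesicular acetylcholine transporter, at least 1867 in each library. Replicate 2 of D5+GSKJ4 stood apart. It had 39381 of 55400 genes at 0 counts, whereas the other 11 D5 and D6 libraries had 30430 to 32287, and only 790 genes with 1 to 9 counts, whereas the others had 7159 to 8380. In this library 651 genes were at 0 that had 10 or more counts in each of the other 11, and no other library had such a gene. Its total of 15705324 counts lay within the range of the others. Of the genes tested, 1766 (10.8%) were at 0 in it, against 32 (0.195%) in each of replicates 1 and 3. Counts of list members below are therefore also given without this library where they differ.

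**Figure D1:**
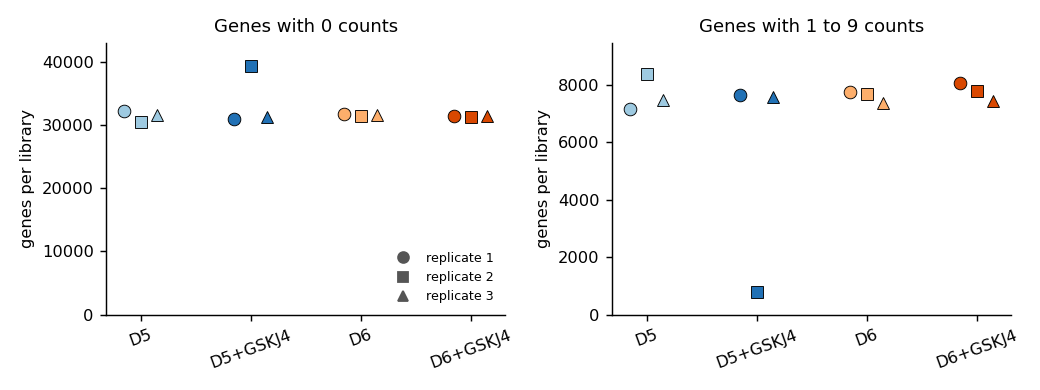
Number of genes (y axis) with 0 counts (left) and with 1 to 9 counts (right) in each D5 and D6 library. Each point is a library, with symbols for replicates, and replicate 2 of D5+GSKJ4 lies at 39381 and 790 genes, outside the range of the other 11 libraries in both panels.

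A fold change here is the log2 ratio of D6+GSKJ4 to D5+GSKJ4 from a quasi-likelihood fit of the counts, and a gene is called higher or lower where the p adjusted over all genes tested is below 0.05. Of 16379 genes tested, 1729 (10.6%) were higher at D6+GSKJ4 and 1141 (6.97%) were lower, 17.5% in all. Without replicate 2 of D5+GSKJ4, 1758 (10.3%) of 16989 genes were higher and 974 (5.73%) lower. The 2 fits shared 1409 raised genes (81.5% of the first list and 80.1% of the second) and 777 lowered genes (68.1% and 79.8%). Among the raised genes 129 were at 0 in replicate 2 of D5+GSKJ4, and all 129 were also called without that library. The counts moved by more than 1.5-fold when another library was left out: without D5+GSKJ4 replicate 3 there were 913 higher and 332 lower genes, without D6+GSKJ4 replicate 1 there were 1003 and 518, and without D6+GSKJ4 replicate 2 there were 1007 and 366. Of 85 genes named below with a call, none reversed when 1 library was left out, and between 3 and 20 lost their call, the most without D5+GSKJ4 replicate 3. In 3218 genes (19.6%) all 3 D6+GSKJ4 values lay above all 3 D5+GSKJ4 values, and in 3921 (23.9%) they lay below.

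Among called genes with a symbol, a mean of at least 100 counts and no overlap between groups, the largest rises were in genes close to absent at D5+GSKJ4. Mab21l2, a developmental gene of the Mab21 family, had 0.426, 0 and 0.249 counts per 1000000 of the library (CPM) in the D5+GSKJ4 replicates and 72.9, 36.4 and 44.6 CPM at D6+GSKJ4. Summed over replicates, its counts rose from 12 to 2478, a ratio scaled to depth of 217 (95% counting interval 124 to 421). Slc17a8, a vesicular glutamate transporter, went from 3 to 613 summed counts (ratio 215, interval 73.3 to 1046), and the adhesion molecule Cntn4 from 3 to 611 (ratio 214, interval 73.0 to 1043). All 3 were at 0 in replicate 2 of D5+GSKJ4, whose depth is part of these ratios. All 3 were also called without that library, at smaller log2 fold changes. These were 7.29 for Mab21l2, 7.17 for Slc17a8 and 7.16 for Cntn4, beside 7.84, 7.68 and 7.67 with it. The intervals cover counting error only. The gene Mab21l2 lies within Lrba on the other strand, and whether reads were counted by strand is not given in the sources used here.

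Other raised genes with the largest changes encode adhesion molecules, a secreted protein, a synaptic protein and receptors or channels of the neuronal membrane. Lsamp, a cell adhesion protein of the immunoglobulin superfamily, was at 1.38, 0 and 1.68 CPM at D5+GSKJ4 and at 82.3, 51.3 and 39.8 CPM at D6+GSKJ4. The protocadherin Pcdh10 was at 2.29, 0 and 0.872 CPM and then at 43.0, 39.3 and 27.8 CPM. The serotonin receptor Htr1a was at 0.16, 0.764 and 0.187 CPM and then at 20.0, 15 and 7.02 CPM. In each of these genes the lowest D6+GSKJ4 value was several times the highest D5+GSKJ4 value. The log2 fold changes were 5.91 ± 0.73 (SE, n = 3 per group) for Lsamp, 5.16 ± 0.80 for Pcdh10 and 5.37 ± 0.69 for Htr1a. Vwc2l rose by 7.27 ± 0.68, Sv2c, a synaptic vesicle glycoprotein, by 5.74 ± 0.78, and the potassium channel gene Kcnd2 by 4.74 ± 0.86. Without replicate 2 of D5+GSKJ4 the rise was 5.34 for Lsamp, 4.58 for Pcdh10 and 6.38 for Htr1a. For Vwc2l, Sv2c and Kcnd2 it was then 6.74, 5.17 and 4.17. Without D5+GSKJ4 replicate 3 the adjusted p of Kcnd2 was 0.0501. That of the other raised genes named here stayed below 0.05 in each alternative run that tested them. All but Htr1a were at 0 in replicate 2 of D5+GSKJ4, and the fits that required a count there did not test them.

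Motor neuron factors moved in different directions. Isl1, a LIM-homeodomain factor required for motor neuron identity, was at 243, 184 and 209 CPM at D5+GSKJ4 and at 550, 552 and 410 CPM at D6+GSKJ4. The groups did not overlap, and the log2 fold change was 1.36 ± 0.19 (adjusted p = 0.00298). Its relative Isl2 was at 8.40, 10.7 and 13.9 CPM and then at 56.4, 56.3 and 84.5 CPM, a log2 fold change of 2.69 ± 0.24 (adjusted p = 0.000633). Lhx3, the partner of Isl1 that persists in medial motor columns, was at 33.8, 30.8 and 37.3 CPM and then at 8.38, 10.9 and 5.10 CPM, so that all D6+GSKJ4 libraries were lower (log2 fold change -1.95 ± 0.29, adjusted p = 0.00357). Mnx1, a homeodomain factor of motor neurons, was at 54.2, 48.3 and 79.0 CPM and then at 80.5, 115 and 73.7 CPM. The groups overlapped and Mnx1 was not called (0.68 ± 0.23, adjusted p = 0.0770). Of 22 motor neuron identity genes tested, 6 were higher, 3 lower and 13 not called, with a median log2 fold change of 0.30 beside -0.02 over all genes tested. Without replicate 2 of D5+GSKJ4 there were 6 higher and 4 lower, and without its replicate 1 or its replicate 3 there were 6 and 1. Per transcript length, as the authors' FPKM, Isl1 was the highest of these 4 factors at D6+GSKJ4 with a mean of 127, followed by Mnx1 at 39.9, Isl2 at 30.0 and Lhx3 at 2.66.

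**Figure D2:**
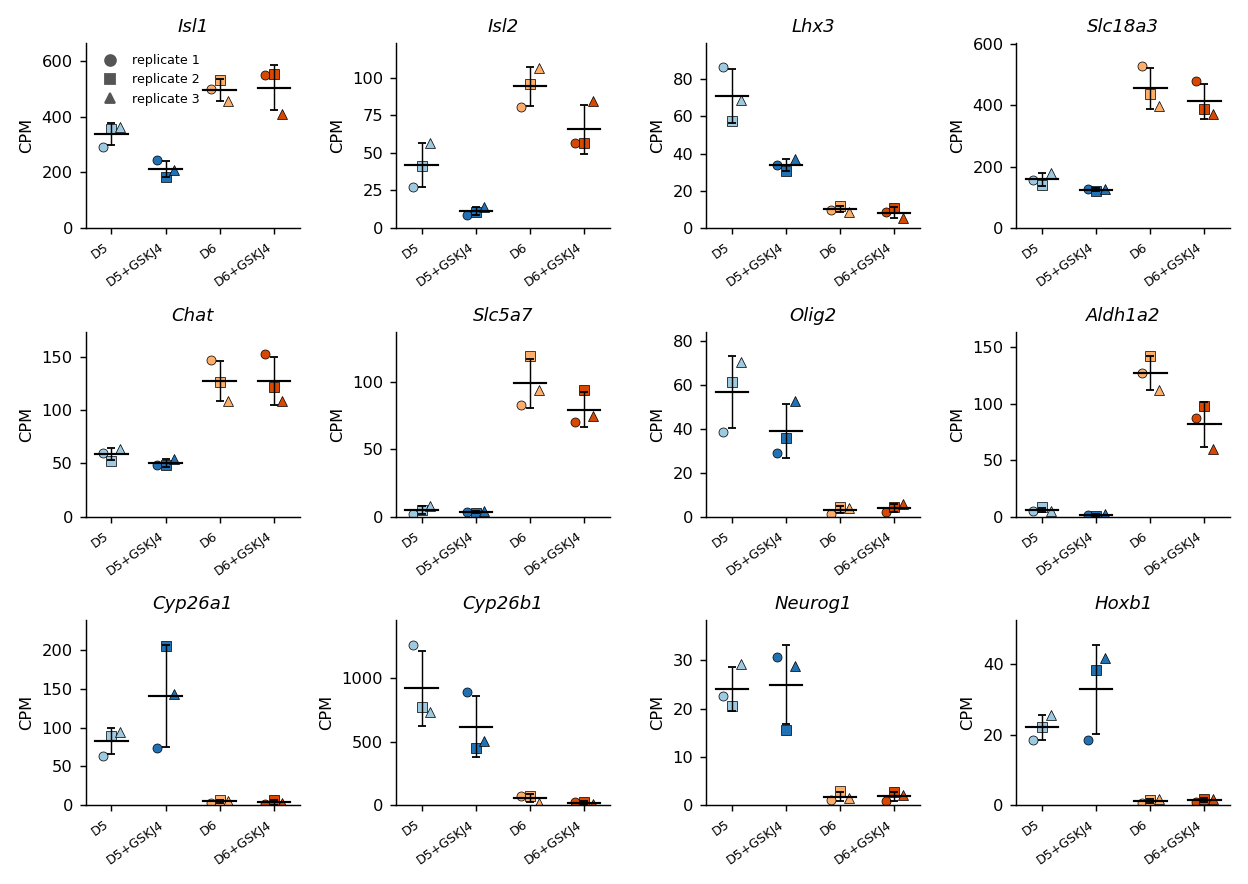
CPM (y axis, linear from 0) of 12 genes in the D5, D5+GSKJ4, D6 and D6+GSKJ4 libraries. Points are libraries, the bar is the mean and the error bar the SD of 3 replicates. Isl1, Isl2, the cholinergic genes and Aldh1a2 are higher at D6+GSKJ4 than at D5+GSKJ4 in every library, and Lhx3, Olig2, Cyp26a1, Cyp26b1, Neurog1 and Hoxb1 are lower.

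Genes for acetylcholine synthesis and release rose together. Chat, the enzyme that makes acetylcholine, was at 48.7, 48.1 and 54.6 CPM at D5+GSKJ4 and at 153, 122 and 109 CPM at D6+GSKJ4 (log2 fold change 1.46 ± 0.18, adjusted p = 0.00165). Slc18a3, which loads acetylcholine into vesicles, was at 125, 119 and 128 CPM and then at 478, 388 and 373 CPM (1.85 ± 0.16, adjusted p = 0.000633). Slc5a7, the choline transporter that supplies the nerve terminal, was at 3.67, 2.67 and 4.17 CPM and then at 69.9, 93.8 and 74.4 CPM (4.60 ± 0.23, adjusted p = 0.000176). No library of the later group came near the earlier group in any of these genes. Of 11 cholinergic and motor axon genes tested, 10 were higher and none lower, with a median of 1.50, and 9 were higher without replicate 2 of D5+GSKJ4. Gap43, a growth cone protein, rose by 1.50 ± 0.23. Agrn, the organiser of the neuromuscular synapse, rose by 0.76 ± 0.18 (adjusted p = 0.0203), and its adjusted p was 0.0655 without replicate 2 and 0.0501 without replicate 3 of D5+GSKJ4. Cpne4 was the member not called, at 4.42, 2.93 and 3.55 CPM and then 3.14, 2.12 and 1.98 CPM.

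Cytoskeletal genes of axons also rose. Of 29 tested, 24 were higher and none lower (22 higher without replicate 2 of D5+GSKJ4), with a median of 1.32. Nefl, the light neurofilament subunit, was at 1031, 730 and 655 CPM and then at 3463, 3219 and 3056 CPM (2.11 ± 0.22). The medium subunit Nefm rose by 2.09 ± 0.28 and the heavy subunit Nefh by 2.47 ± 0.40. Nefh remained far lower per length, at a mean FPKM of 5.00 beside 960 for Nefl and 696 for Nefm at D6+GSKJ4. The axonal microtubule protein Mapt rose by 2.66 ± 0.27, the largest rise in this group. Map1a, at 171, 98.6 and 114 CPM and then 189, 143 and 161 CPM, was not called.

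The presynaptic and channel genes called were all higher. Of 37 presynaptic vesicle genes tested, 25 were higher and none lower (median 1.29), and 25 were higher without replicate 2 of D5+GSKJ4. Syn1, which tethers synaptic vesicles, was at 30.3, 32.7 and 21.3 CPM and then at 129, 82.7 and 79.6 CPM (1.91 ± 0.26, adjusted p = 0.00276). Leaving out D5+GSKJ4 replicate 3, D6+GSKJ4 replicate 1 or D6+GSKJ4 replicate 2 each left 16 presynaptic genes called. Of 42 voltage-gated channel genes, 21 were higher and none lower (median 1.49), and 23 were higher without replicate 2 of D5+GSKJ4. Scn3a, a sodium channel, was at 77.0, 41.5 and 34.4 CPM and then at 311, 233 and 206 CPM (2.39 ± 0.34). Without D5+GSKJ4 replicate 3, 14 of the channel genes were called.

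Of 38 neurotransmitter receptor genes tested, 16 were higher and 1 lower (median 1.55), and without replicate 2 of D5+GSKJ4, in which 10 of them were at 0, 23 were higher and 1 lower. Glra1, a subunit of the glycine receptor, was at 13.4, 9.93 and 12.7 CPM and then at 0.985, 0.993 and 0.900 CPM (-3.53 ± 0.36, adjusted p = 0.000944). Gabbr1, a subunit of the metabotropic GABA receptor, rose from 183, 156 and 175 to 612, 515 and 451 CPM (1.73 ± 0.18). Gria2, the AMPA receptor subunit that limits calcium entry, was at 106, 30.4 and 41.7 CPM and then at 346, 316 and 155 CPM (2.29 ± 0.51, adjusted p = 0.0183). The call of Gria2 was lost without D5+GSKJ4 replicate 3, D6+GSKJ4 replicate 1 or D6+GSKJ4 replicate 2, at adjusted p values of up to 0.0863. The NMDA receptor subunit Grin2b was at 0.160, 0 and 0.0623 CPM and then at 13.4, 11.6 and 4.92 CPM. Slc12a5, the potassium-chloride exporter that lowers chloride in mature neurons, rose by 1.43 ± 0.30 (adjusted p = 0.0152).

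Cell surface genes that were called were mostly higher. Of 65 adhesion and synapse organiser genes tested, 40 were higher and 1 lower (median 1.85), 23 of them being at 0 in replicate 2 of D5+GSKJ4. Without that library 44 were higher and 1 lower, and there were 24 and 1 without D5+GSKJ4 replicate 3 and 25 and 1 without D6+GSKJ4 replicate 1. Ncam1, a neural adhesion molecule, was at 502, 379 and 342 CPM and then at 1175, 905 and 826 CPM (1.36 ± 0.23). Cntn2, carried transiently on outgrowing axons, was the member that fell, from 1705, 1442 and 1704 to 456, 478 and 846 CPM (-1.35 ± 0.23, adjusted p = 0.00667). Of 49 axon guidance genes, 27 were higher and none lower (median 0.77). Without D5+GSKJ4 replicate 2, 22 were higher and 1 lower, and without D5+GSKJ4 replicate 3, 17 were higher and none lower. Sema5a, a semaphorin, rose from 19.4, 9.93 and 10.3 to 210, 190 and 152 CPM (3.89 ± 0.32, adjusted p = 0.000633). Of 18 neurotrophic factor receptor genes 6 were higher and 1 lower (6 and 2 without replicate 2 of D5+GSKJ4). Ntrk3 and Ngfr, which bind neurotrophins, rose by 3.06 ± 0.33 and 1.82 ± 0.18 on the log2 scale.

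Of 25 neuronal RNA-binding and splicing genes tested 13 were higher and 2 lower. The counts were 7 and 1 without D5+GSKJ4 replicate 2, 4 and 0 without D5+GSKJ4 replicate 3, and 6 and 0 without D6+GSKJ4 replicate 1 or replicate 2. The splicing regulator Rbfox1 rose from 45.5, 52.8 and 37.8 to 253, 211 and 165 CPM (2.32 ± 0.22), and Ptbp1, the repressor of neuronal exons, fell from 233, 359 and 382 to 114, 177 and 197 CPM (-0.88 ± 0.22, adjusted p = 0.0271). The call of Ptbp1 was lost without D5+GSKJ4 replicate 2 or 3 and without D6+GSKJ4 replicate 1 or 2, at adjusted p values of 0.0595 to 0.118. In the BAF remodelling complex, which exchanges progenitor for neuronal subunits in development, the neuronal subunit Actl6b rose from 17.9, 13.6 and 12.4 to 84.4, 73.0 and 58.7 CPM (2.40 ± 0.24). The progenitor subunit Phf10 fell from 129, 172 and 147 to 65.4, 75.0 and 80.9 CPM (-0.90 ± 0.14, adjusted p = 0.00396). Of 21 BAF genes tested 9 were higher and 1 lower, and there were 7 and 1 without D5+GSKJ4 replicate 2 and 5 and 1 without D5+GSKJ4 replicate 3. The targets of the inhibitor were not called: Kdm6a was at 70.2, 61.0 and 65.1 CPM and then 69.8, 59.9 and 65.9 CPM, and Kdm6b at 297, 250 and 292 CPM and then 293, 239 and 259 CPM. Among 16 genes of the H3K27 demethylases and Polycomb repressive complex 2, 1 was lower by edgeR, and none without replicate 2 of D5+GSKJ4 or without any single D6+GSKJ4 library. The Onecut homeodomain factor Onecut3 rose by 2.26 ± 0.35 and Cux2 by 1.14 ± 0.18.

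Of 20 proneural and neurogenic genes tested 9 were lower and 2 higher, and of 28 ventral progenitor factors 8 were lower and 4 higher. Without replicate 2 of D5+GSKJ4 these were 10 and 2 and 9 and 4. Olig2, the defining factor of motor neuron progenitors, was at 28.7, 35.8 and 52.6 CPM at D5+GSKJ4 and at 1.91, 4.50 and 5.58 CPM at D6+GSKJ4 (-3.18 ± 0.38, adjusted p = 0.00163). The proneural factor Neurog1 was at 30.6, 15.5 and 28.8 CPM and then at 0.801, 2.72 and 2.1 CPM (-3.65 ± 0.47). Neurog2, the main proneural factor of motor neuron progenitors, was at 29.2, 41.2 and 45.1 CPM and then at 3.76, 7.55 and 6.48 CPM (-2.59 ± 0.28). In all 3 genes every D6+GSKJ4 library was below every D5+GSKJ4 library. Neurod4, a neurogenic factor downstream of the neurogenins, fell by 3.85 ± 0.48 on the log2 scale. Without D5+GSKJ4 replicate 3 there were 6 lower and 1 higher proneural genes and 5 lower and 3 higher progenitor factors, and the higher proneural genes were 1 without D6+GSKJ4 replicate 3 and none without D6+GSKJ4 replicate 1 or 2. The largest rise among the progenitor factors was that of Nkx6-2, from 6.33, 4.52 and 8.78 to 96.2, 26.4 and 62.3 CPM (3.36 ± 0.48). Vim, an intermediate filament of neural progenitors, was at 807, 773 and 802 CPM and then at 750, 644 and 866 CPM and was not called.

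In the Notch pathway, which DAPT blocks in these cultures, 5 of 20 genes were higher and 5 lower. The counts higher and lower were 4 and 5 without D5+GSKJ4 replicate 2, 1 and 3 without D5+GSKJ4 replicate 3, 2 and 3 without D6+GSKJ4 replicate 1, and 1 and 4 without D6+GSKJ4 replicate 2. The receptor Notch1 fell from 91.7, 67.7 and 114 to 12.3, 21.3 and 33.5 CPM (-1.93 ± 0.34) and the ligand Dll4 from 5.43, 7.96 and 6.04 to 1.05, 1.85 and 0.840 CPM (-2.26 ± 0.49), whereas the ligand Jag1 rose by 1.32 ± 0.36 (adjusted p = 0.0372). The call of Jag1 was lost in 5 of the 6 fits that left out 1 library, all but that without D5+GSKJ4 replicate 2, and the call of Dll4 without D5+GSKJ4 replicate 3, D6+GSKJ4 replicate 1 or D6+GSKJ4 replicate 3. In the hedgehog pathway the ligand rose while its receptor and transducer fell. The agonist SAG was left out of the medium from D5, and its part in these values was not tested. Shh, the ligand, rose from 9.68, 3.12 and 4.61 to 38.2, 52.8 and 48.7 CPM (3.07 ± 0.41). The receptor Ptch1 fell by 0.63 ± 0.15 on the log2 scale and the transducer Smo fell by 1.02 ± 0.23. Ptch1 and Smo were not called without D5+GSKJ4 replicate 3, D6+GSKJ4 replicate 1 or D6+GSKJ4 replicate 2, and Ptch1 also not without D6+GSKJ4 replicate 3. Of 11 hedgehog genes 4 were lower and 1 higher, 5 and 1 without D5+GSKJ4 replicate 2, and 2 and 1 without D5+GSKJ4 replicate 3, D6+GSKJ4 replicate 1 or D6+GSKJ4 replicate 2.

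Among called genes with a symbol, a mean of at least 100 counts and no overlap between groups, Cyp26a1 and Cyp26b1 had the largest falls. Retinoic acid was left out of the medium from D5. The part of this removal in the values given here, and in those of the Hox genes below, was not tested. Cyp26a1, which degrades retinoic acid and is itself induced by it, was at 74.4, 205 and 143 CPM at D5+GSKJ4 and at 1.17, 7.48 and 3.12 CPM at D6+GSKJ4 (-5.06 ± 0.60, adjusted p = 0.00155). Its relative Cyp26b1 was at 891, 450 and 510 CPM and then at 27.3, 25.8 and 10.6 CPM (-4.76 ± 0.46, adjusted p = 0.000755). Cyp26c1, the third of this family, was at 4.63, 21.2 and 10.3 CPM and then at 0, 1.13 and 0.660 CPM (-4.21 ± 0.96, adjusted p = 0.0193), and its adjusted p was 0.0676 without D5+GSKJ4 replicate 3. The opposite change was seen in Aldh1a2, the enzyme that makes retinoic acid and a marker of motor columns at limb levels, at 1.70, 0.828 and 2.24 CPM and then at 87.0, 98.2 and 59.6 CPM (5.78 ± 0.37, adjusted p = 0.000420). The receptor Rara fell by 0.58 ± 0.15 on the log2 scale and the binding protein Crabp1 fell by 0.72 ± 0.18. Rarb, a receptor gene that retinoic acid induces, was at 52.7, 37.8 and 42.2 CPM and then at 32.4, 35.8 and 20.7 CPM, and was not called (adjusted p = 0.236). Of 14 retinoic acid genes tested 5 were lower and 2 higher, with and without replicate 2 of D5+GSKJ4, and 3 were lower without D5+GSKJ4 replicate 3, D6+GSKJ4 replicate 2 or D6+GSKJ4 replicate 3. Crabp1 was not called in these 3 fits, and Rara was called in only 1 of the 6 fits that left out 1 library, that without D5+GSKJ4 replicate 2.

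Retinoic acid receptors bind direct repeats, here searched as GTTCA and AGTTCA, 5 bases apart, on both strands of RefSeq promoters (GRCm38.p6, from 250 bases before to 50 bases after the start). The repeat was chosen after the values were seen. It occurred in 11 (0.0407%) of 27025 genes with a promoter, and in 2 of the 12 retinoic acid genes tested that had one. These were Cyp26a1, at chr19:37697769-37697798 on the plus strand, with the match on the opposite strand, and Rarb, at chr14:16575506-16575535 on the minus strand, with the match on the strand of the gene. Both stretches overlap an annotated exon of their gene, and both are shown 5′ to 3′ on the strand of the gene with the repeat and its spacer in capitals, because the fall of 1 gene was called and that of the other was not.
Cyp26a1: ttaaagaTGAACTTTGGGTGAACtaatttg
Rarb: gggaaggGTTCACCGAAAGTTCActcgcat

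Some Hox genes were among those that fell. Hoxb1, an early retinoic acid target at the 3′ end of its cluster, was at 18.5, 38.4 and 41.8 CPM and then at 0.985, 1.72 and 1.80 CPM (-4.33 ± 0.38, adjusted p = 0.000633). Hoxb9, from the other end of the same cluster as Hoxb1, was at 19.6, 73.5 and 60.7 CPM and then at 0.924, 5.89 and 2.28 CPM (-3.96 ± 0.66). The fall therefore took in genes from both ends of the Hoxb cluster. Of 27 Hox genes tested 10 were lower and none higher (median -0.66), the same counts as without replicate 2 of D5+GSKJ4, and without D6+GSKJ4 replicate 3 there were 9 lower and 2 higher. Hoxc5 was at 109, 95.4 and 99.3 CPM and then at 176, 162 and 98.5 CPM, and was not called. The antisense gene Hoxb5os fell by 3.97 ± 0.51 on the log2 scale, but it overlaps Hoxb5 and Hoxb6 on the other strand, and without strand the reads of these genes cannot be told apart.

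The cell cycle genes called were lower at D6+GSKJ4, and their number moved widely with the libraries used. Top2a, the topoisomerase of dividing cells, was at 401, 508 and 588 CPM and then at 76.7, 244 and 245 CPM (-1.31 ± 0.37, adjusted p = 0.0413). It was not called without any 1 of the D5+GSKJ4 replicates or without D6+GSKJ4 replicate 2, at adjusted p values of 0.0524 to 0.147. Foxm1, which drives mitotic genes, was at 45.5, 66.1 and 84.3 CPM and then at 9.36, 22.3 and 26.1 CPM (-1.66 ± 0.35, adjusted p = 0.0142, and 0.0714 without D5+GSKJ4 replicate 3). Replicate 1 was the lowest of its group in both genes and at both days. Of 50 mitotic genes tested 25 were lower and none higher (median -1.27). That count was 16 without replicate 2 of D5+GSKJ4, 1 without replicate 3 of D5+GSKJ4, 12 without replicate 2 of D6+GSKJ4 and 48 by DESeq2. With replicate number as a block in the edgeR fit it was 46. Of 42 DNA replication genes 12 were lower and none higher (median -0.92). That count was 8 without D5+GSKJ4 replicate 2, 1 without D5+GSKJ4 replicate 3, 4 without D6+GSKJ4 replicate 1, 6 without D6+GSKJ4 replicate 2 and 26 by DESeq2. With the replicate block it was 36. Cdt1, which licenses replication origins, fell from 58.9, 88.6 and 98.1 to 15.8, 28.5 and 30.6 CPM (-1.60 ± 0.26, adjusted p = 0.00487).

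Summed over the mitotic genes, the level was 3217, 4188 and 4710 CPM in the D5+GSKJ4 replicates and 779, 2032 and 2078 CPM in the D6+GSKJ4 replicates. The 2 groups did not overlap, and replicate 1 was the lowest of each. The summed level of 20 pluripotency genes was also lowest in replicate 1, at 131, 362 and 322 CPM and then at 111, 336 and 308 CPM, and its part in the cell cycle result was not tested. Of these 20 genes 2 were higher, none lower and 18 not called, with a median log2 fold change of 0.25. There was 1 higher without replicate 2 of D5+GSKJ4, and none without its replicate 3. Nanog, a defining pluripotency gene, was at 9.15, 45.3 and 29.8 CPM and then at 3.14, 31.0 and 24.0 CPM and was not called. Of 17 D cyclin and CDK inhibitor genes 7 were lower and 1 higher, with and without replicate 2 of D5+GSKJ4. The cyclin Ccnd1 fell from 65.7, 30.4 and 72.4 to 6.28, 13.0 and 13.7 CPM (-2.26 ± 0.39, adjusted p = 0.00637). The CDK inhibitor Cdkn1c, which holds young neurons out of the cycle, rose from 261, 266 and 268 to 356, 407 and 382 CPM (0.64 ± 0.12, adjusted p = 0.00869, and 0.0508 without D6+GSKJ4 replicate 2).

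Promoters of mitotic genes commonly carry CCAAT boxes and the cell cycle homology element TTTGAA. Both were searched on both strands in the same RefSeq promoters. CCAAT occurred in 41.1% of the 27025 genes with a promoter and TTTGAA in 20.2%. Of the 40 mitotic genes tested that had a promoter, 29 (72.5%) held CCAAT and 29 (72.5%) held TTTGAA, and among the 20 of these called lower the count was 16 (80.0%) for each. Of all genes called lower with a promoter, 151 of 824 (18.3%) held TTTGAA, beside 13.9% of the 11508 tested and 12.4% of the genes called higher. The E2F-type motif TTTGGCGC occurred in 0.585% of all promoters and in 8 of 34 DNA replication genes (23.5%). The stretches with the matches in Top2a (chr11:99024200-99024385, minus strand), in the proliferation marker Mki67 (chr7:135716465-135716574, minus strand) and in the spindle motor Kif11 (chr19:37376330-37376375, plus strand) show the spacing of the elements upstream of the start. Each is written on the strand of the gene with matches to CCAAT or TTTGAA, or to their reverse complements, in capitals, and no 2 matches overlap. Mki67 and Kif11 were picked for these stretches after their values were seen, and they fell by 1.41 ± 0.30 and by 1.34 ± 0.34 on the log2 scale. Neither was called without D5+GSKJ4 replicate 3, and Kif11 also not without D6+GSKJ4 replicate 2.
Top2a: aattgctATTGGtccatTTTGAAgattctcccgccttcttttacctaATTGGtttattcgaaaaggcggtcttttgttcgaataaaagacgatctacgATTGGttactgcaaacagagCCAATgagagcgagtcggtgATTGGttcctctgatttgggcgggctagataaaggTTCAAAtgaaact
Mki67: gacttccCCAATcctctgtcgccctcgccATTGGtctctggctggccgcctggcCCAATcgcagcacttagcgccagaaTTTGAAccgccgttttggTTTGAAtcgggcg
Kif11: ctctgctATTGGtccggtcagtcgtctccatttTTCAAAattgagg

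Genes of the integrated stress response fell almost as a whole. This response is set off when the translation factor eIF2 is phosphorylated, and its effectors ATF4, ATF5 and DDIT3 (CHOP) switch on genes of amino acid uptake and synthesis. Of 22 tested, 19 were lower and none higher (median -1.36), and 18 without replicate 2 of D5+GSKJ4. Atf4 was at 227, 271 and 271 CPM at D5+GSKJ4 and at 155, 127 and 136 CPM at D6+GSKJ4 (-0.76 ± 0.14, adjusted p = 0.00897, and 0.0528 without D6+GSKJ4 replicate 2). Atf5 was at 138, 225 and 217 CPM and then at 94.0, 67.0 and 73.7 CPM (-1.18 ± 0.21, adjusted p = 0.00757), and Atf3 at 14.8, 26.1 and 20.9 CPM and then at 1.97, 3.64 and 5.82 CPM (-2.33 ± 0.39). Every D6+GSKJ4 library was below every D5+GSKJ4 library in all 3 factors. Slc7a11, the cystine importer, showed the largest fall of the list, from 11.1, 15.7 and 12.6 to 1.35, 0.596 and 1.44 CPM (-3.40 ± 0.42, adjusted p = 0.00179). Psat1, of serine synthesis, was the most abundant member and fell from 456, 495 and 432 to 199.8, 166 and 180 CPM (-1.23 ± 0.14). Ddit4, an inhibitor of mTOR signalling, went from 86.1, 112 and 87.4 to 83.2, 81.5 and 186 CPM and was not called.

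The element bound by ATF4 with C/EBP partners was searched as TGATGNAA on both strands, a motif chosen after the values were seen. It occurred in 4.51% of all promoters, in 8 of the 21 stress response genes tested that had a promoter (38.1%) and in 7 of the 18 of these called lower (38.9%). The matches of 5 of them are shown, all in genes called lower. They are those of Slc7a11 (chr3:50443646-50443686, minus strand), Chac1 (chr2:119351042-119351063, plus strand), Atf3 (chr1:191183429-191183450, minus strand), Nupr1 (chr7:126625566-126625587, minus strand) and Asns (chr6:7693218-7693239, minus strand), with the match in capitals, on the strand of the gene. The stretches of Nupr1 and Asns overlap an annotated exon. Chac1, a glutathione-degrading enzyme, Nupr1, a stress-induced nuclear protein, and Asns, asparagine synthetase, were picked for these matches after their values were seen, and fell by 2.52 ± 0.27, 2.89 ± 0.60 and 1.44 ± 0.14 on the log2 scale. Nupr1 was not called without D5+GSKJ4 replicate 3, D6+GSKJ4 replicate 1 or D6+GSKJ4 replicate 2.
Slc7a11: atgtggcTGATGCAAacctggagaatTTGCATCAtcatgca
Chac1: cctgccgTTGCATCActcctgc
Atf3: ctcgcacTTGCATCAccaagtc
Nupr1: ggccagaTTGCATCAgacaggg
Asns: agccacaTGATGAAActtcccg

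Of 32 genes of hypoxia and glycolysis tested 11 were higher and none lower (median 0.65), and 6 without replicate 2 of D5+GSKJ4. There were 4 without D5+GSKJ4 replicate 3, 5 without D6+GSKJ4 replicate 1 and 3 without D6+GSKJ4 replicate 2 or replicate 3. Ndrg1, a hypoxia-induced gene, was at 4.31, 2.42 and 10.9 CPM and then at 13.7, 19.7 and 35.3 CPM (2.07 ± 0.55, adjusted p = 0.0339), and was not called without D5+GSKJ4 replicate 1, D6+GSKJ4 replicate 2 or D6+GSKJ4 replicate 3. Pkm, pyruvate kinase, was the most abundant member, at 1479, 1226 and 1614 CPM and then at 1425, 1873 and 2423 CPM, and was not called. Summed over the list, the level was 6303, 4666 and 6316 CPM at D5+GSKJ4 and 7134, 7776 and 11354 CPM at D6+GSKJ4, so that the groups did not overlap.

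**Figure D3:**
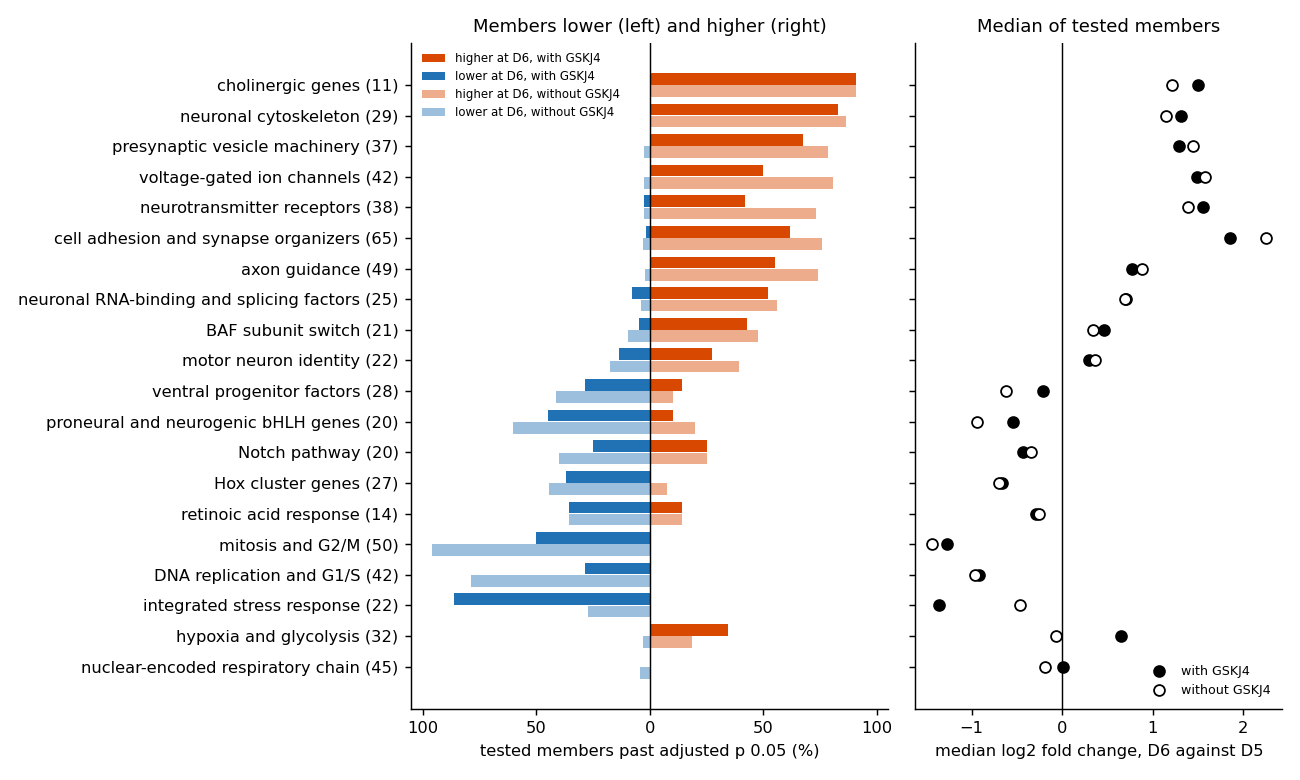
Left, share of tested members (x axis, %) lower or higher at D6 with an adjusted p below 0.05 in each gene list, for the comparison with GSKJ4 (dark) and without (light), with the number tested with GSKJ4 in brackets. Right, median log2 fold change of the tested members. Neuronal lists lie to the right in both, and 19 of 22 integrated stress response genes were lower with GSKJ4 and 6 of 22 without.

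The same day was then compared between cultures with and without the inhibitor. Without GSKJ4, 2933 (17.8%) of 16446 genes tested were higher at D6 than at D5 and 2302 (14%) were lower, 31.8% in all. Of 16014 genes tested in both comparisons, 2863 were called with GSKJ4 and 5157 without, and 2475 were called in both in the same direction, which is 86.4% of the former and 48% of the latter. A single gene was called in opposite directions. The fold changes had a Pearson r of 0.874 across genes, which are not independent replicates, and r was 0.896 without replicate 2 of D5+GSKJ4. The residual spread was larger with the inhibitor: the biological coefficient of variation was 0.324 with GSKJ4, 0.234 once replicate 2 of D5+GSKJ4 was left out, and 0.205 without GSKJ4. The lower number of calls with GSKJ4 is thus no measure of a smaller change.

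**Figure D4:**
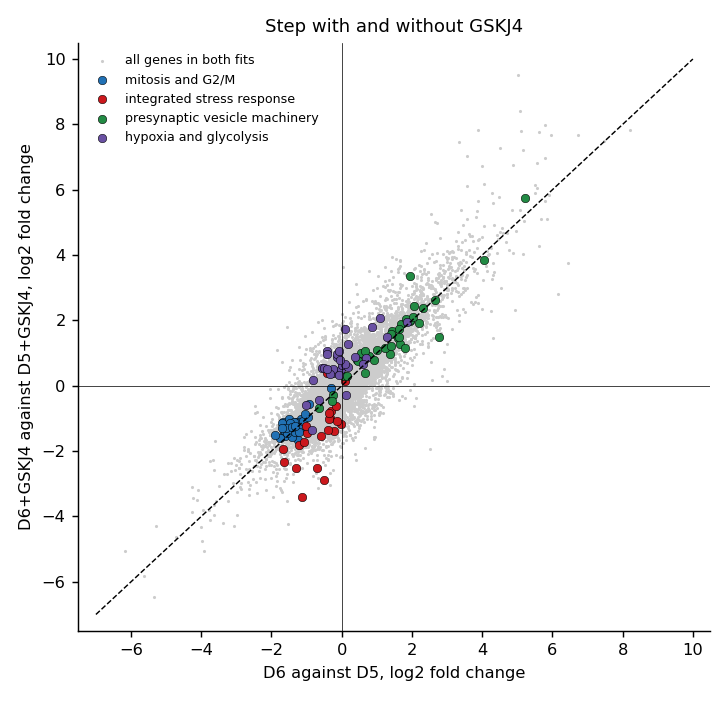
Log2 fold change from D5 to D6 without GSKJ4 (x axis) against that from D5+GSKJ4 to D6+GSKJ4 (y axis). Each point is a gene tested in both, the dashed line marks equal change, and coloured points are members of 4 gene lists. Most genes lie along the line (r = 0.874), with stress response genes mostly below it and hypoxia genes mostly above it.

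The difference between the 2 changes was tested as an interaction over the 12 libraries. It equals the effect of GSKJ4 at D6 minus its effect at D5. None of 17390 genes (0%) passed by the quasi-likelihood test of edgeR, and the smallest adjusted p was 0.454. At an unadjusted p below 0.05 the log2 fold change was higher with GSKJ4 in 195 genes and lower in 187, 2.20% of those tested. This split is by the sign of the difference, so a deeper fall with GSKJ4 counts as lower. DESeq2 called 1 gene. The median size of the difference was 0.233 on the log2 scale with a median SE of 0.365. For 8159 genes (46.9%) the 95% interval of the difference lay wholly within a log2 value of 1 in either direction, and for the rest a difference of that size was not excluded.

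Among genes with the smallest unadjusted p, Isl2 rose by 2.69 with GSKJ4 and by 1.27 without, a difference of 1.43 (95% interval 0.70 to 2.15). Its mean level was 11 ± 2.75 CPM (SD, n = 3) at D5+GSKJ4 and 41.7 CPM at D5, and 65.7 ± 16.3 CPM at D6+GSKJ4 and 94.4 CPM at D6. The treated mean was below the untreated mean on each day. Scml4, related to Polycomb proteins, had a difference of 0.99 (0.54 to 1.44), with 47.8, 49.5 and 50.4 CPM at D5+GSKJ4 and 70.2, 51.7 and 75.2 CPM at D6+GSKJ4. The differences of Hs3st5, which modifies heparan sulfate, and of March4, a ubiquitin ligase, were 1.82 (0.86 to 2.78) and 1.06 (0.46 to 1.65), and that of Vwc2l was 2.78 (1.27 to 4.29). Isl1 had a difference of 0.72 (0.21 to 1.23) and Sema5a of 1.42 (0.60 to 2.23). None of these passed the adjusted threshold.

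On the other side, Ddit3, which encodes CHOP, fell from 41.1, 58.1 and 46.6 to 16.8, 15.8 and 19.3 CPM with GSKJ4 and had means of 17.9 CPM at D5 and 14.4 CPM at D6. Its change was lower by 1.15 under GSKJ4 (interval of the difference -1.67 to -0.62), and it overlaps Mars on the other strand. Stc2, a secreted glycoprotein induced by stress, had a difference of -1.74 (-2.71 to -0.78), and the mitochondrial folate enzyme Aldh1l2 of -1.24 (-1.91 to -0.58). Aldh1l2 was at 51.9, 58.9 and 51.4 CPM and then 57.0, 36.3 and 38.7 CPM with GSKJ4, and had means of 23.0 CPM at D5 and 45.4 CPM at D6. Alas1, of haem synthesis, had a difference of -0.78 (-1.21 to -0.34) and Svep1, a secreted adhesion protein, of -1.37 (-2.12 to -0.61). These also did not pass the adjusted threshold.

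The members of each list at an unadjusted p below 0.05 for the difference were then counted. In the stress response list these were 9 of 22 (40.9%), all with the lower change under GSKJ4 (7 without replicate 2 of D5+GSKJ4), and the median difference was -0.65. In the hypoxia list they were 14 of 32 (43.8%), all with the higher change under GSKJ4 (7, or 21.9%, without that library), and the median difference was 0.67. In the motor neuron identity list they were 5 of 23 (21.7%), all with the higher change (4 without that library). In the stage interaction list of the study they were 5 of 19 (26.3%), 4 with the higher and 1 with the lower change, with and without that library. The study named these factors with these libraries at hand, so their share is no independent evidence. The background was 2.20% of all genes and a median difference of 0.02. Summed stress response levels were 2819, 3699 and 3454 CPM at D5+GSKJ4 beside 1740, 1656 and 2437 CPM at D5, and 1475, 1268 and 1595 CPM at D6+GSKJ4 beside 1151, 1272 and 1265 CPM at D6. The groups of D5 did not overlap, and those of D6 did. Summed hypoxia levels were 13435, 9589 and 9737 CPM at D5, above all 3 D5+GSKJ4 libraries, and 8067, 10363 and 9636 CPM at D6, within the range of D6+GSKJ4. For the cholinergic, presynaptic, mitotic and DNA replication lists no member had an unadjusted p below 0.05, apart from 1 presynaptic gene without replicate 2 of D5+GSKJ4.

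**Figure D5:**
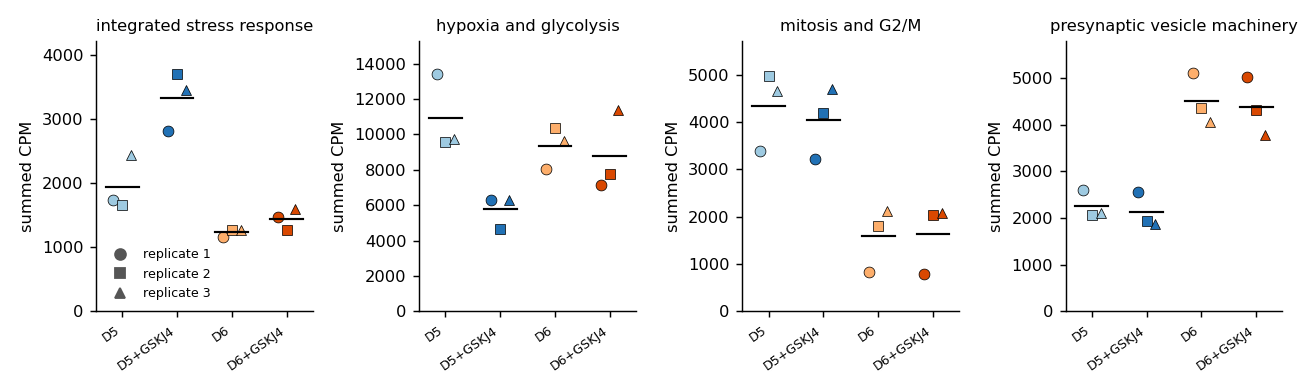
Summed CPM (y axis, linear from 0) of 4 gene lists in each D5, D5+GSKJ4, D6 and D6+GSKJ4 library. Points are libraries and bars are means of 3. The stress response sum is 2819 to 3699 CPM at D5+GSKJ4 and 1268 to 1595 CPM at D6+GSKJ4, and the mitotic and presynaptic sums change alike with and without the inhibitor.

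Markers of other cells were counted in 5 lists. Of 18 spinal interneuron factors tested 1 was higher and 1 lower (2 and 2 of 24 without replicate 2 of D5+GSKJ4, and none without D5+GSKJ4 replicate 1 or D6+GSKJ4 replicate 2), and their summed level was 80 to 102 CPM at D5+GSKJ4 and 88 to 122 CPM at D6+GSKJ4. Their defining genes En1, Evx1 and Evx2 had at most 13 counts in any of the 6 libraries, but other members were detected. Uncx went from 21, 0 and 46 to 224, 314 and 170 counts and Sim1 from 51, 191 and 35 to 190, 395 and 190. Lmx1b had 130, 316 and 219 and then 134, 215 and 240 counts. Lhx1, a LIM factor of interneurons and of lateral motor columns, fell from 31.3, 25.5 and 21.4 to 11.1, 11.3 and 5.34 CPM (-1.38 ± 0.34, adjusted p = 0.0253), and was not called without D5+GSKJ4 replicate 1 or 3 or D6+GSKJ4 replicate 2. Of 10 glial markers 1 was higher and 2 lower, with a summed level of 249 to 312 CPM and then 183 to 209 CPM. The defining astrocyte genes Gfap and Aqp4 had at most 6 counts in any library, and Aldh1l1 had 25, 0 and 18 and then 75, 28 and 56. Other members were well detected in both directions. Nfia went from 117, 72 and 107 to 669, 505 and 320 counts, and Gja1 from 727, 797 and 1031 to 115, 253 and 504. Slc1a2, a glutamate transporter, fell from 146, 89.3 and 110 to 40.9, 44.6 and 33.6 CPM (-1.44 ± 0.23). Of 9 floor plate markers 4 were higher and 1 lower (3 and 1 without replicate 2 of D5+GSKJ4), and their sum went from 227 to 298 CPM to 397 to 548 CPM. Spon1, a floor plate protein, rose from 36.6, 34.2 and 37.7 to 115, 156 and 127 CPM (1.98 ± 0.15), whereas Foxa2, which defines the floor plate, was at 20.9, 25.9 and 34.9 CPM and then 24.6, 35.1 and 45.3 CPM and was not called. Of 20 fibroblast matrix genes 1 was higher, and their sum was 574 to 812 CPM and then 305 to 965 CPM. Fn1, fibronectin, was abundant at 2097 to 7617 counts in the 6 libraries. Of 12 endoderm, mesoderm and blood markers tested none was higher and 2 were lower (1 and 2 of 15 without replicate 2 of D5+GSKJ4), with sums of 256 to 406 CPM and then 74 to 276 CPM. Krt8, a keratin of simple epithelia, had 384 to 2597 counts. Without D6+GSKJ4 replicate 3, 4 fibroblast genes and 5 of the endoderm, mesoderm and blood markers were lower. The part of these cells in the results above was not tested.

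Early and late gene groups named by the study were chosen on these samples, and its stage interaction list was named with these samples at hand. The counts of all these lists are no independent evidence of direction. Of 13 late genes 10 were higher and 1 lower, and of 6 early genes tested 4 were lower and none higher (3 without replicate 2 of D5+GSKJ4, and 2 without D5+GSKJ4 replicate 3, D6+GSKJ4 replicate 2 or D6+GSKJ4 replicate 3). Of 19 factors of the stage interaction list 8 were higher and 5 lower (7 and 6 without replicate 2 of D5+GSKJ4).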

How the data were processed

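RNA was sequenced from 21 motor neuron culture libraries after poly(A) selection. The authors trimmed reads with Fastp, aligned them with HISAT2 to mm10 (Ensembl annotation), sorted them with SAMtools and counted them per gene with HTSeq, with the strand setting not given in the sources used here. The deposited table holds raw counts of 55400 genes and FPKM values that the authors computed from these counts and gene lengths. The FPKM values, recomputed from the counts and lengths, differed by at most 0.005.

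Differential expression was tested on the deposited counts with the quasi-likelihood test of edgeR 4.0.16 (R 4.3.3, TMM scaling, filterByExpr with a minimum count of 10, Benjamini-Hochberg adjusted p below 0.05), with group means only. D6+GSKJ4 against D5+GSKJ4 and D6 against D5 were each fitted on their own 6 libraries, and the difference of the 2 on all 12. CPM are counts per 1000000 counts of the library. An SE is that of the log2 fold change. No 2 libraries of a group agreed within sampling noise. The labels name the replicates of every group, with and without GSKJ4, as biological. They do not say whether the replicates were separate differentiations, and the p-values measure the spread between these samples. No label says that equal replicate numbers were grown together. Same-number correlations of deviations from the group means were 0.332, 0.166 and 0.245 between D5 and D6. They were 0.297, 0.049 and 0.155 between D5+GSKJ4 and D6+GSKJ4, and 0.710, 0.369 and 0.499 between D6 and D6+GSKJ4. In the same order, different-number correlations were -0.263 to 0.109, -0.246 to 0.069 and -0.534 to 0.205. Deviations within a group cancel out, so the same-number and different-number values depend on each other. With a replicate block, 755 genes had an unadjusted p below 0.05 for the difference by edgeR, against 382 in the main fit, and none passed the adjusted threshold. The block did not move the untreated counts by 1.5-fold.

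The comparison and the gene lists were chosen with earlier results of these data known. Genes were named by a rule: up to 10 raised and 10 lowered genes with the largest change among those called, with a symbol of a named gene, a mean of at least 100 counts and no overlap between groups, up to 5 in each direction with the smallest unadjusted p for the difference, and up to 6 per list (the first 3, the largest rise, the largest fall and the most abundant). Some genes that the rule names are not reported here. Further names are marked as chosen after their values were seen. Alternatives were DESeq2 1.42.0, other scalings and filters, a replicate block, all 21 libraries and each library left out. Robust dispersion, the block without D5+GSKJ4 replicate 2 and the restriction to genes with a count in that library were added after seeing the data. Promoters were those of RefSeq on GRCm38.p6, matched by symbol for 11508 of the 16379 genes tested. Counting intervals are exact and cover counting error only.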

Additional observations from a re-analysis of the deposited data

How the results depend on the processing

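Of 85 genes named with a call between D5+GSKJ4 and D6+GSKJ4, none reversed under the alternatives run. The calls lost were 6, 3 and 20 without D5+GSKJ4 replicates 1, 2 and 3 and 11, 17 and 8 without D6+GSKJ4 replicates 1, 2 and 3, and 2, of Crabp1 and Rara, with all 21 libraries. No call was lost under the other settings, although 71 of the 85 genes could be tested with at least 10 counts in every library and 76 with a count in D5+GSKJ4 replicate 2. Among the 20 genes with the largest changes, the calls lost were those of Kcnd2 and Cyp26c1 without D5+GSKJ4 replicate 3. The number of raised genes was 2715 with a replicate block and D5+GSKJ4 replicate 2 left out, and 913 to 1917 when 1 library was left out in turn. The number of lowered genes was 2196 with all 21 libraries in the fit, 1750 with no filter on low counts, 1830 with a replicate block (2287 raised), 2359 with the block and replicate 2 left out, and 332 to 1087 when 1 library was left out. The replicate numbers were not used to pair the treated samples in the main fit. No label pairs them. The same-number correlation between D5+GSKJ4 and D6+GSKJ4 was 0.049 for replicate 2, whose D5+GSKJ4 library had many genes at 0. It was 0.297 and 0.155 for replicates 1 and 3. The remaining scalings and DESeq2 (2334 raised and 1625 lowered) stayed within 1.5-fold. Without GSKJ4 the number of lowered genes was 1333 to 2355 over left-out libraries and 2996 with the block. For the difference of the 2 changes, 26 genes were higher and 10 lower with no filter, 1 was lower by DESeq2, and none was called under the other settings. With no filter Scml4, Isl2, Vwc2l and Aldh1l2 passed, the first at an adjusted p of 0.0359. The mitotic genes called lower ranged from 1 to 49 over all settings, and the stress response genes from 15 to 19. The causes of these shifts were not tested. Genes near 0 in D5+GSKJ4 are limited by depth, and their fold changes depend on few counts.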

Other observations

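Of 25 heat shock and endoplasmic reticulum chaperone genes tested 1 was lower at D6+GSKJ4, Herpud1, which acts in the degradation of misfolded proteins. It was at 59.9, 72.8 and 65.7 CPM at D5+GSKJ4 and at 30.8, 30.7 and 29.3 CPM at D6+GSKJ4 (log2 fold change -1.01 ± 0.14, SE, n = 3 per group, adjusted p = 0.00284). Without GSKJ4 its means were 32.7 CPM at D5 and 27.4 CPM at D6, and 12 of the 25 genes were lower. Of 21 p53 target genes 5 were lower and 1 higher, and there were 2 and 1 without D5+GSKJ4 replicate 2 or D6+GSKJ4 replicate 1 and none without D5+GSKJ4 replicate 3 or D6+GSKJ4 replicate 2. Cdkn1a, the main CDK inhibitor induced by p53, was at 70.9, 144 and 110 CPM and then at 90.8, 82.0 and 123 CPM and was not called. Of 18 NRF2 targets 4 were lower (3 without replicate 2 of D5+GSKJ4). Of 12 metallothionein and zinc transporter genes 3 were lower, 2 without D5+GSKJ4 replicate 2 (with 1 higher) and 1 without D5+GSKJ4 replicate 3, D6+GSKJ4 replicate 1 or D6+GSKJ4 replicate 2. Mt1, a metallothionein, was at 115, 344 and 219 CPM and then at 32.0, 126 and 120 CPM and was not called.

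Among 21 genes of the Bcl2 family and cell death 4 were higher and 1 lower, 4 and 0 without D5+GSKJ4 replicate 2, and 2 and 0 without D5+GSKJ4 replicate 3, D6+GSKJ4 replicate 1 or D6+GSKJ4 replicate 2. Hrk, a pro-apoptotic gene of neurons, rose from 17.1, 10.4 and 17.3 to 108, 66.0 and 62.0 CPM (2.51 ± 0.31, adjusted p = 0.00174), and the survival genes Bcl2 and Bcl2l1 rose by 1.09 ± 0.27 and 0.63 ± 0.14. Neither survival gene was called in the last 3 of these fits, and Bcl2 also not without D6+GSKJ4 replicate 3. Without GSKJ4 the means of Hrk were 9.82 CPM at D5 and 123 CPM at D6, and the difference of the 2 changes was -1.22 (95% interval -2.21 to -0.23), which did not pass the adjusted threshold. Of 24 cholesterol synthesis genes 4 were higher and 1 lower, 1 and 1 without D5+GSKJ4 replicate 2, 2 and 0 without D6+GSKJ4 replicate 3, 9 and 0 without D5+GSKJ4 replicate 1, and none without D5+GSKJ4 replicate 3, D6+GSKJ4 replicate 1 or D6+GSKJ4 replicate 2. Of 20 immediate early genes 3 were higher and 2 lower, Btg2, an antiproliferative gene, falling from 50.7, 79.0 and 66.6 to 17.9, 23.2 and 37.4 CPM (-1.21 ± 0.26). There were 3 and 1 without D5+GSKJ4 replicate 2, 2 and 1 without D6+GSKJ4 replicate 1, and 2 and 0 without D5+GSKJ4 replicate 3 or D6+GSKJ4 replicate 2, where Btg2 was not called. None of 45 nuclear-encoded respiratory chain genes was called by edgeR or DESeq2, with a median of 0.01, and 1 was higher without D5+GSKJ4 replicate 1.

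Of 15 genes of chloride transport and transmitter synthesis tested 6 were higher and 2 lower (7 and 2 of 17 without D5+GSKJ4 replicate 2, and 3 and 2 without D6+GSKJ4 replicate 2). Tph2, the neuronal enzyme of serotonin synthesis, fell from 10.3, 2.87 and 3.49 to 0.246, 0.861 and 0.300 CPM (-3.49 ± 0.80, adjusted p = 0.0203), and was not called without D5+GSKJ4 replicate 1, D6+GSKJ4 replicate 1 or D6+GSKJ4 replicate 3. Th, the enzyme of catecholamine synthesis, was at 158, 152 and 113 CPM and then at 94.6, 86.2 and 76.8 CPM and was not called (adjusted p = 0.0552). Of 11 sensory and neural crest markers 1 was higher and 2 lower (2 and 2 without D5+GSKJ4 replicate 2).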
